A study of Mus musculus with 6 samples.

Results

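Rab GTPases are small proteins that mark membranes, and the 57 genes described here are those whose symbol was Rab followed by a number and at most 1 letter, among 16135 genes with reads in any of 6 RNA sequencing libraries. The libraries were made from common dendritic cell progenitors (CDPs), bone marrow precursors of dendritic cells. Wildtype C57BL/6 mice of 6 to 8 weeks were used, and the CDPs were flow-sorted into CD115+Ly6C-, CD115+Ly6C+ and CD115-Ly6C- cells, with 2 libraries each. CD115, the product of Csf1r, binds macrophage colony-stimulating factor, and Ly6C is found on the surface of monocytes and their precursors. No group carried a transgene or a treatment that the labels name. Whether replicate libraries stand for separate animals or separate sorts is not given in the labels. The p-values therefore measure the spread between these libraries, which may be technical. In such bulk libraries, fewer cells that express a gene and less RNA per cell cannot be told apart.

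A Rab protein switches between a GTP-bound state on a membrane and a GDP-bound state in the cytosol. Exchange factors load GTP, GTPase activating proteins end the active state, and carrier proteins move the inactive, prenylated Rab between membranes. In the active state a Rab recruits effectors such as motors, tethers and fusion factors, and each Rab is known for its own step of transport. In myeloid and dendritic cells these steps include the uptake and degradation of antigen, the recycling of receptors, and the release of granules and cytokines. The 57 genes were therefore grouped by the step that textbooks assign to them.

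Libraries held 17961541 to 19450329 expected counts, of which Rab genes took 0.347% to 0.390%. The progenitor markers Flt3, Csf1r, Kit, Irf8, Tcf4 and Spi1 were present in each library, but not at equal levels. Flt3, Kit and Tcf4 were lowest in CD115+Ly6C+ cells. Flt3 stood there at 355 and 318 CPM, against 653 and 654 in CD115+Ly6C- cells and 1242 and 1127 in CD115-Ly6C- cells. Spi1 was highest in CD115+Ly6C+ cells, and the subsets overlapped for Irf8. Csf1r stood at 405 and 510 CPM (counts scaled to a common library total) in CD115+Ly6C- cells, 527 and 494 in CD115+Ly6C+ cells, and 232 and 275 in CD115-Ly6C- cells, so its RNA was lower but not absent in the cells sorted as CD115-. For Ly6c2, which encodes part of the Ly6C antigen, the values were 118 and 187, 1371 and 1302, and 45.6 and 65.5 CPM in the same order of subsets. Markers of other cells moved with the subsets. The summed level of 11 late neutrophil granule genes was 248 and 1009 CPM in CD115+Ly6C- cells, 4349 and 3969 in CD115+Ly6C+ cells, and 383 and 181 in CD115-Ly6C- cells, with none of the 11 at 0. The sum of 8 monocyte genes was 2796 and 2963, 6759 and 7297, and 1078 and 1346 CPM. The sum of 10 B cell and early lymphoid genes ran the other way, at 382 and 489, 125 and 145, and 3420 and 2895 CPM. Dntt, which encodes the terminal transferase of lymphoid progenitors, gave 3200 and 2694 CPM of the last pair, while the B cell gene Pax5 stood at no more than 0.110 CPM in any library. Cd79b, also on that list, did not follow its sum and stood at 83.5 to 94.4 CPM over the libraries. Plasmacytoid dendritic cell genes (7) summed to 375 and 419, 336 and 301, and 864 and 876 CPM. Of these, Bst2 did not follow, at 240 and 211 CPM in CD115+Ly6C+ cells and 172 to 208 elsewhere. The sum of 6 T and NK cell genes was 25.7 to 153 CPM, of which Nkg7 gave 24.2 to 150.3, while Cd3e was at 0 in 5 libraries and at 0.0531 CPM in the other. The part of these cell types in the Rab values was not tested.

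Of the 57 Rab genes, 43 had a mean of at least 1 FPKM (fragments per kilobase, scaled to the depth of the library, so a level per gene length), and 14 lay below it. The 5 highest, Rab7, Rab1b, Rab8a, Rab1a and Rab14, held 42.8% of the summed Rab FPKM. They stand for 4 different steps. Rab7, which drives the fusion of late endosomes with lysosomes, was the highest at 211.9 and 188.6 FPKM in CD115+Ly6C- cells, 174.9 and 205.7 in CD115+Ly6C+ cells, and 152.2 and 178.1 in CD115-Ly6C- cells. Rab1b, which acts between the endoplasmic reticulum (ER) and the Golgi, ranged from 144.0 to 169.8 FPKM over the libraries. Rab8a, which carries cargo to the plasma membrane, ranged from 127.7 to 174.5 FPKM. Each subset overlapped at least 1 other for these 3 genes, and none of them passed the threshold in any comparison by the edgeR fit used here. At the other end, Rab15, Rab26, Rab27b, Rab33a, Rab39b, Rab3b, Rab40b, Rab42 and Rab9b did not pass the filter on low counts and were not tested. Each of these 9 stood at 0.66 FPKM or less in each library. Rab25 and Rab3c, which the RefSeq annotation also holds, are not listed in any library. The genes lay on 18 chromosomes, and the closest neighbours, Rab7b and Rab29 on chromosome 1, were 151766 bases apart.

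**Figure D1:**
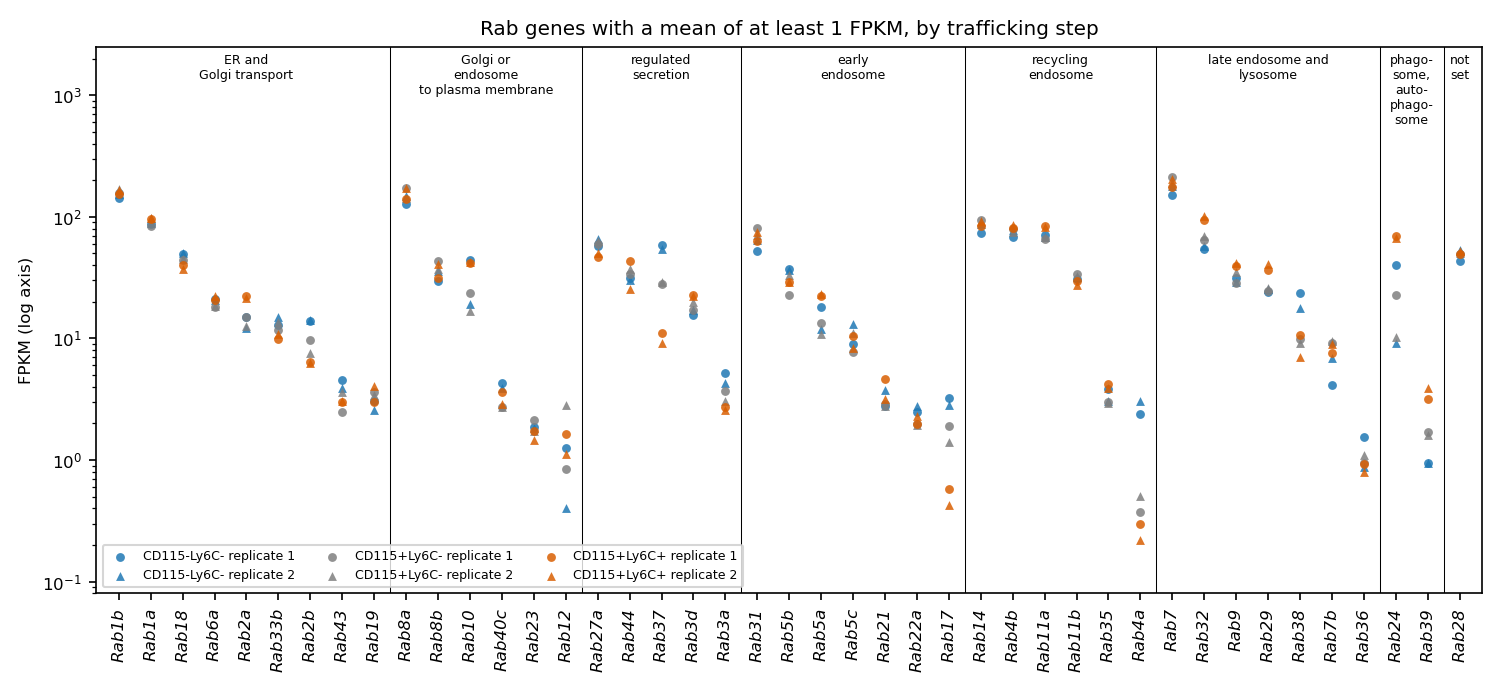
Level of the 43 Rab genes with a mean of at least 1 FPKM, grouped by trafficking step. Each point is 1 library (FPKM on a log axis), coloured by subset, with circles for replicate 1 and triangles for replicate 2. Rab7, Rab1b and Rab8a lie above 100 FPKM in each library, while Rab4a, Rab24, Rab17, Rab12 and Rab37 span the widest ranges between points.

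The question of each comparison was which Rab genes differ between 2 of the sorted subsets. CD115+Ly6C+ and CD115-Ly6C- lay furthest apart: of 48 tested Rab genes, 12 rose and 7 fell in CD115+Ly6C+ relative to CD115-Ly6C- at an edgeR adjusted p under 0.05. This is 39.6% of the Rab genes, against 39.3% of the 12127 genes tested (19.2% higher, 20.1% lower), so the share was near the background. Between CD115+Ly6C+ and CD115+Ly6C-, 6 Rab genes were higher and 2 lower in CD115+Ly6C+ (16.7%, against 9.6% of genes, 5.26% higher and 4.34% lower). Between CD115-Ly6C- and CD115+Ly6C-, 4 were higher and 2 lower in CD115-Ly6C- (12.5%, against 15.2% of genes, 8.43% higher and 6.78% lower). The median log2 fold change of the Rab genes was 0.31 for CD115+Ly6C+ minus CD115-Ly6C-, where that of the genes tested was -0.03. It was 0.05 for CD115+Ly6C+ minus CD115+Ly6C- (genes tested, -0.01) and -0.03 for CD115-Ly6C- minus CD115+Ly6C- (0.02). The 3 comparisons share libraries, so their calls are not independent. In all, 19 Rab genes passed the threshold in at least 1 comparison, Rab32 and Rab37 passed in all 3, and 29 passed in none.

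The scaling of the libraries and the choice of test moved this split. TMM scaling, used here, sets the bulk of genes level between libraries. With library totals in its place, the median of the genes tested shifted by -0.19 on the log2 scale for CD115+Ly6C+ minus CD115-Ly6C- and by 0.12 for CD115-Ly6C- minus CD115+Ly6C-. Calls for CD115+Ly6C+ minus CD115-Ly6C- were then 7 higher and 10 lower, where 12.5% of genes tested were higher and 28.9% lower. Limma on log2(FPKM + 1) or log2(FPKM + 0.1) gave 9 higher and 8 lower. There the scale, the test and the genes differ, as only the 10362 genes with a mean of at least 1 FPKM were tested. Of genes tested, limma had 15.25% or 14.95% higher and 29.19% or 28.72% lower. The size factors of DESeq2 within edgeR, a change of scaling alone, gave 13 higher and 7 lower, and the DESeq2 test gave 16 and 6, with Rab1b, Rab7, Rab8a, Rab14 and Rab31 as the added genes. Genes tested were 19.86% higher and 19.47% lower with the size factors, and 15.12% and 14.28% of 16108 with the DESeq2 test. In CD115-Ly6C- minus CD115+Ly6C-, library totals and limma each gave 4 higher and 0 lower, the size factors gave 3 and 2, and the DESeq2 test gave 4 and 4. Genes tested there were 11.4% higher and 3.95% lower with library totals, and 11.78% and 5.47% with limma on log2(FPKM + 1). With limma on log2(FPKM + 0.1) they were 10.64% and 5.29%. The size factors had 8.30% and 6.78%, and the DESeq2 test 7.27% and 6.99%. No Rab gene called here changed its direction under any of the 15 alternatives (scalings, tests, filters and libraries left out) in which it was tested. Rab30 and Rab6b, with means below 1 FPKM, were not tested by limma and were tested in 13 of them. The calls for Rab37 held under each alternative in all 3 comparisons. Between CD115+Ly6C+ and CD115-Ly6C-, the calls for 10 of the 19 genes did so: Rab2a, Rab2b, Rab3d, Rab4a, Rab17, Rab29, Rab32, Rab37, Rab38 and Rab39.

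**Figure D2:**
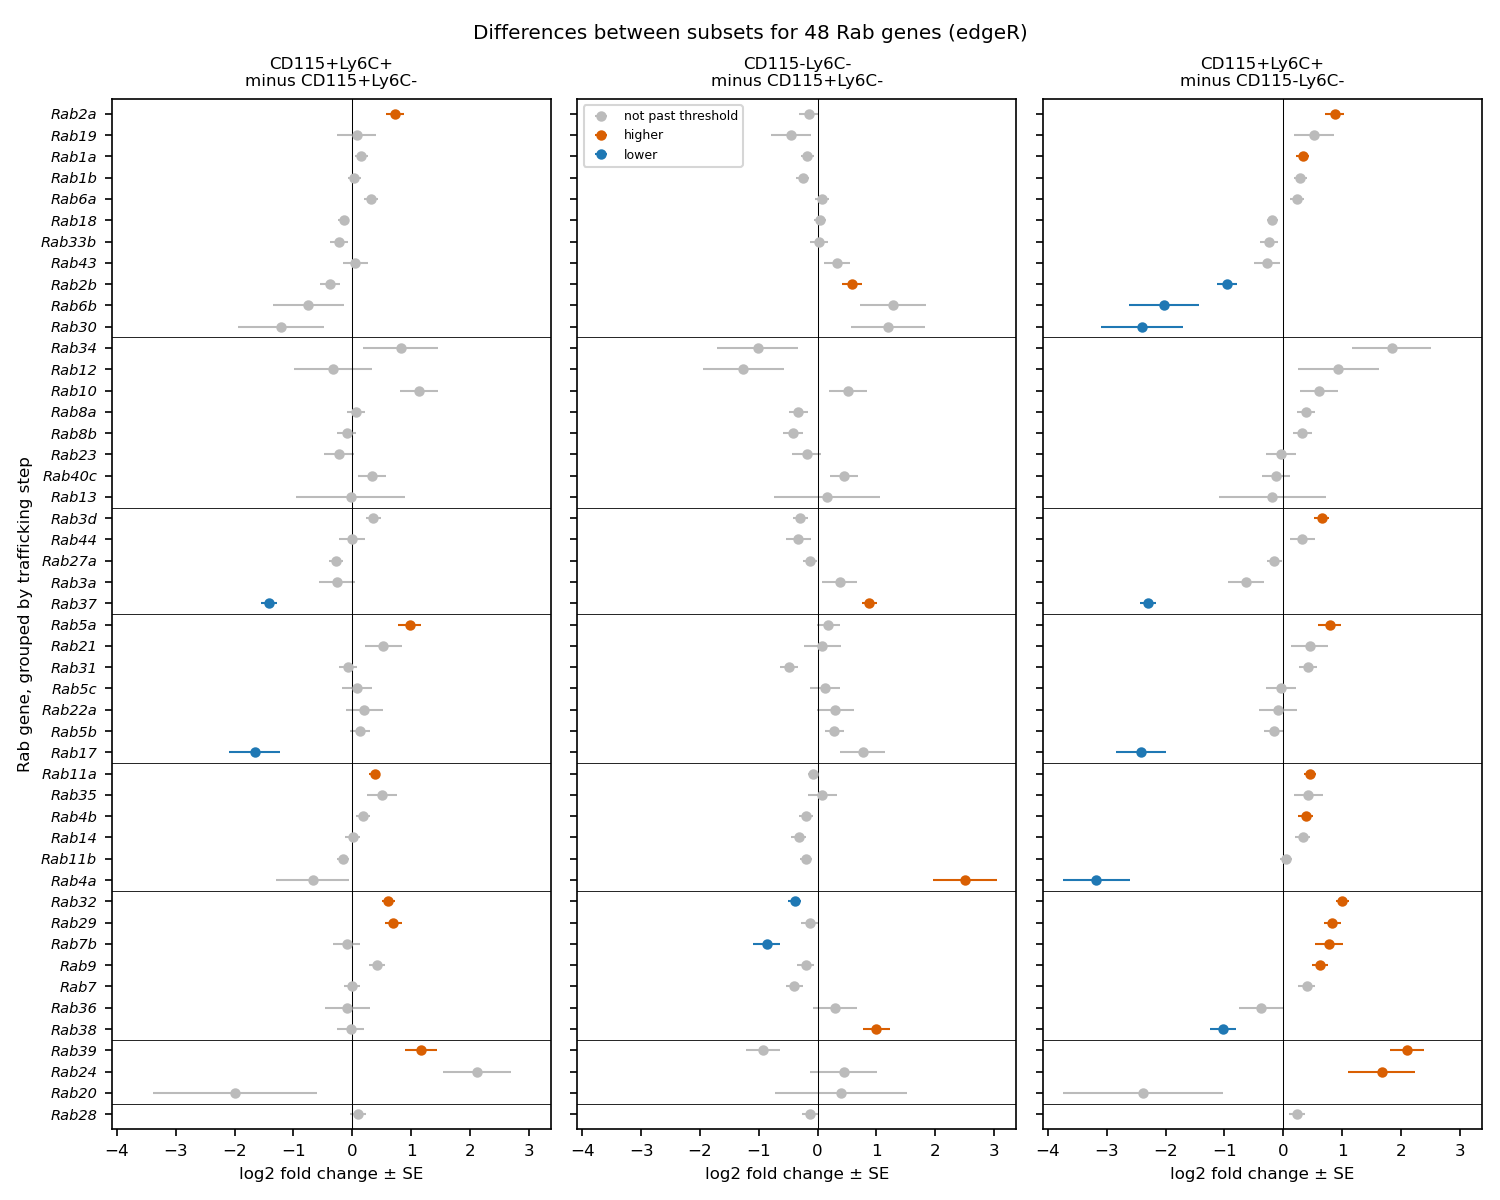
Log2 fold change (± SE) of the 48 tested Rab genes in each comparison, from the edgeR fit over the 6 libraries. Genes are grouped by step in the order ER and Golgi, plasma membrane, secretion, early endosome, recycling endosome, late endosome and lysosome, phagosome and autophagosome, and step not assigned. Colour marks genes past the threshold (orange higher, blue lower): 8, 6 and 19 genes from left to right.

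RefSeq promoter windows (GRCm38.p6) were matched for 46 of the 57 genes, giving 58 windows, and the 250 bases before each start were searched on both strands. The letters of a GC box, GGGCGG, stood in 67.2% of the Rab windows and in 32.7% of all 32851 windows. The E-box CACGTG stood in 8.62% against 6.02%, and the cyclic AMP element TGACGTCA in 1.72% against 1.55%. A PU.1 motif, GAGGAAGT (PU.1 is encoded by Spi1), stood in 3.45% against 2.44%, and the 2 Rab windows were those of Rab32 and Rab2b. Both genes were called between CD115+Ly6C+ and CD115-Ly6C-, in opposite directions, so the 28 bases around each match are shown with the motif in capitals, read 5′ to 3′ on the gene's strand (the minus strand for both). The Rab32 match lay 43 bases before the start (chr10:10558233-10558260), and the Rab2b match lay 175 bases before it, reading on the other strand (chr14:52279553-52279580).
Rab32: agccagggaaGAGGAAGTgccgggacca
Rab2b: cgagcgcgtcACTTCCTCaaggagaaag
For CD115+Ly6C+ minus CD115-Ly6C-, a GC box stood before 6 of the 10 higher Rab genes with a window and before 2 of the 3 lower ones. Rab39 and Rab17, a chosen pair of low genes that also ran in opposite directions, differed in the letters before their starts. The 150 bases before the Rab39 start (chr9:53706233-53706382, minus strand) held 4 GC boxes, in capitals. The 150 bases before the RefSeq start of Rab17 (chr1:90967668-90967817, minus strand), a start that lies inside the span annotated for the gene, held none of the 4 motifs.
Rab39: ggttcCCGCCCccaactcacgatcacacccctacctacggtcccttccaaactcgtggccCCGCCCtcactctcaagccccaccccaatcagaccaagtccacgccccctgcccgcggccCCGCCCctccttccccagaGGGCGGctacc
Rab17: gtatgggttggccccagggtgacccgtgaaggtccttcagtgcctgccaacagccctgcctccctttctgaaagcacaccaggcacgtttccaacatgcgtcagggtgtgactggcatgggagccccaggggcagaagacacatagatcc
These matches describe letters only, and no binding was measured.

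Secretory granule Rabs held the member with the smallest adjusted p in each comparison, Rab37. Rab37 (chromosome 11, 115091331 to 115162773) is known from the secretory granules of mast cells and from cytokine release. It stood at 27.9 and 28.9 FPKM in CD115+Ly6C- cells, 11.2 and 9.15 in CD115+Ly6C+ cells, and 58.9 and 54.8 in CD115-Ly6C- cells. The 3 subsets did not overlap, and the libraries within each lay close together. Log2 fold changes were -1.41 ± 0.13 (SE) for CD115+Ly6C+ minus CD115+Ly6C- (edgeR adjusted p = 9.99e-04), 0.88 ± 0.13 for CD115-Ly6C- minus CD115+Ly6C- (adjusted p = 0.00368) and -2.29 ± 0.13 for CD115+Ly6C+ minus CD115-Ly6C- (adjusted p = 1.62e-05). The last is a level 4.90-fold lower in CD115+Ly6C+. Mast cell, basophil and platelet genes (8) also had their highest sum in CD115-Ly6C- cells, at 53.1 and 63.3 CPM, against 18.8 and 11.7 in CD115+Ly6C- cells and 34.3 and 22.05 in CD115+Ly6C+ cells. Of these, the mast cell protease gene Cpa3 stood at 28.4 and 34.03 CPM in CD115-Ly6C- cells and at 1.85 to 3.98 in the other libraries. Gata2 and Gp9 were also highest in CD115-Ly6C- cells. Other members of the list did not follow. Mcpt8 stood at 14.3 and 20.4 CPM in CD115-Ly6C- cells and at 7.12 to 26.0 elsewhere. Fcer1a was lowest in CD115-Ly6C- cells, at 0.0549 and 0.106 CPM against 0.445 to 1.81 elsewhere. Ppbp and Pf4 were at 0 or up to 0.211 CPM in CD115-Ly6C- cells. The part of such cells in the Rab37 values was not tested. Rab3d, another granule Rab, ran the opposite way with a smaller difference. It stood at 17.0 and 20.0 FPKM in CD115+Ly6C- cells, 22.6 and 22.5 in CD115+Ly6C+ cells, and 15.6 and 17.3 in CD115-Ly6C- cells. Both CD115+Ly6C+ libraries lay above the other 4, and the call was against CD115-Ly6C- (log2 fold change 0.65 ± 0.13, edgeR adjusted p = 0.00457). Rab27a, which docks secretory lysosomes at the plasma membrane and was the highest of the 8 secretion genes, ranged from 46.7 to 66.2 FPKM and passed in no comparison by edgeR (largest difference -0.27, 95% interval -0.55 to 0.00, CD115+Ly6C+ minus CD115+Ly6C-). For CD115+Ly6C+ minus CD115-Ly6C- it was called lower under library totals (-0.34, adjusted p = 0.0383) and with limma on both FPKM scales (adjusted p = 0.0352 and 0.0374), against -0.15 with TMM scaling. Rab44, a long Rab with calcium-binding motifs, stood at 34.1 and 37.1, 43.3 and 25.6, and 31.5 and 30.3 FPKM, so its CD115+Ly6C+ libraries lay on either side of the rest. Rab3a stood at 2.58 to 5.17 FPKM and was not called by edgeR, while limma called it lower for CD115+Ly6C+ minus CD115-Ly6C- (-0.64 on log2(FPKM + 1), adjusted p = 0.0171; -0.80 on log2(FPKM + 0.1), adjusted p = 0.0199). The summed FPKM of the step was 148, 119 and 171 in CD115+Ly6C-, CD115+Ly6C+ and CD115-Ly6C-, the order of Rab37 and the reverse of that of Rab3d.

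Late endosome and lysosome Rabs had 5 of 7 tested genes past the threshold between CD115+Ly6C+ and CD115-Ly6C-, 4 higher and 1 lower (71.4%, against 39.3% of genes tested, 19.2% higher and 20.1% lower). Rab32 serves lysosome-related organelles and the mitochondrial surface. Its level was 64.5 and 69.8 FPKM in CD115+Ly6C- cells, 93.7 and 101.5 in CD115+Ly6C+ cells, and 54.0 and 57.4 in CD115-Ly6C- cells, with no overlap between subsets. The log2 fold change was 1.0 ± 0.11 for CD115+Ly6C+ minus CD115-Ly6C- (edgeR adjusted p = 3.01e-04) and 0.61 ± 0.11 for CD115+Ly6C+ minus CD115+Ly6C- (adjusted p = 0.0143). The second call was lost without either CD115+Ly6C- library or without CD115+Ly6C+ replicate 2 (highest adjusted p = 0.114). Its remaining call, -0.39 ± 0.11 for CD115-Ly6C- minus CD115+Ly6C- (adjusted p = 0.0471), was lost in 12 of 15 alternatives, among them library totals and each library left out in turn (highest adjusted p = 0.293). Rab38, the paralog of Rab32 in lysosome-related organelles, went the other way: it stood at 9.88 and 9.11 FPKM in CD115+Ly6C- cells, 10.7 and 7.06 in CD115+Ly6C+ cells, and 23.4 and 17.9 in CD115-Ly6C- cells. Both CD115-Ly6C- libraries lay above the other 4, while the other subsets overlapped. Its log2 fold change was -1.02 ± 0.23 for CD115+Ly6C+ minus CD115-Ly6C- (edgeR adjusted p = 0.00806) and 1.0 ± 0.23 for CD115-Ly6C- minus CD115+Ly6C- (adjusted p = 0.0225). The second was lost without either CD115+Ly6C- library or without CD115-Ly6C- replicate 1 (highest adjusted p = 0.148).

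Rab29, a Golgi and lysosome Rab that recruits the kinase LRRK2, stood at 24.8 and 25.8 FPKM in CD115+Ly6C- cells, 36.6 and 41.2 in CD115+Ly6C+ cells, and 24.2 and 25.7 in CD115-Ly6C- cells. CD115+Ly6C+ was thus apart from the other subsets, which overlapped. The log2 fold change was 0.83 ± 0.14 against CD115-Ly6C- (edgeR adjusted p = 0.00256) and 0.70 ± 0.14 against CD115+Ly6C- (adjusted p = 0.0229). The latter was lost when the trend with gene length was removed, without either CD115+Ly6C- library, or without CD115+Ly6C+ replicate 2 (highest adjusted p = 0.141). Rab9, which returns receptors from late endosomes to the Golgi, stood at 28.7 and 35.4, 39.7 and 41.9, and 31.5 and 28.9 FPKM. For CD115+Ly6C+ minus CD115-Ly6C- it was called higher (0.63 ± 0.14, edgeR adjusted p = 0.00925), a call lost without CD115+Ly6C+ replicate 2 or CD115-Ly6C- replicate 2 (highest adjusted p = 0.0566) and with the length trend removed together with a replicate block (adjusted p = 0.0630). Rab7b, which acts between late endosomes and the Golgi, stood at 9.15 and 9.49, 7.63 and 9.01, and 4.15 and 6.90 FPKM. It was lowest in CD115-Ly6C-, by -0.87 ± 0.23 against CD115+Ly6C- (edgeR adjusted p = 0.0406) and with 0.77 ± 0.23 for CD115+Ly6C+ minus CD115-Ly6C- (adjusted p = 0.0295). Both calls were lost under library totals (adjusted p = 0.0579 and 0.0672) and with limma. Leaving out CD115-Ly6C- replicate 1 moved the values to -0.53 and 0.43, and leaving out its replicate 2 to -1.31 and 1.21. The first was also lost without either CD115+Ly6C- library or without CD115-Ly6C- replicate 1, and the second without CD115-Ly6C- replicate 1, CD115+Ly6C+ replicate 2 or CD115+Ly6C- replicate 2 (highest adjusted p = 0.191 and 0.143). Rab7, far more abundant, had a difference of 0.40 between CD115+Ly6C+ and CD115-Ly6C- (95% interval 0.08 to 0.72, edgeR adjusted p = 0.0523), just outside the threshold. It was called by DESeq2 (adjusted p = 0.0188) and by edgeR with DESeq2 size factors (0.0498) or no filter (0.0201). The summed FPKM of the step was 345 in CD115+Ly6C- cells, 386 in CD115+Ly6C+ cells and 303 in CD115-Ly6C- cells.

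**Figure D3:**
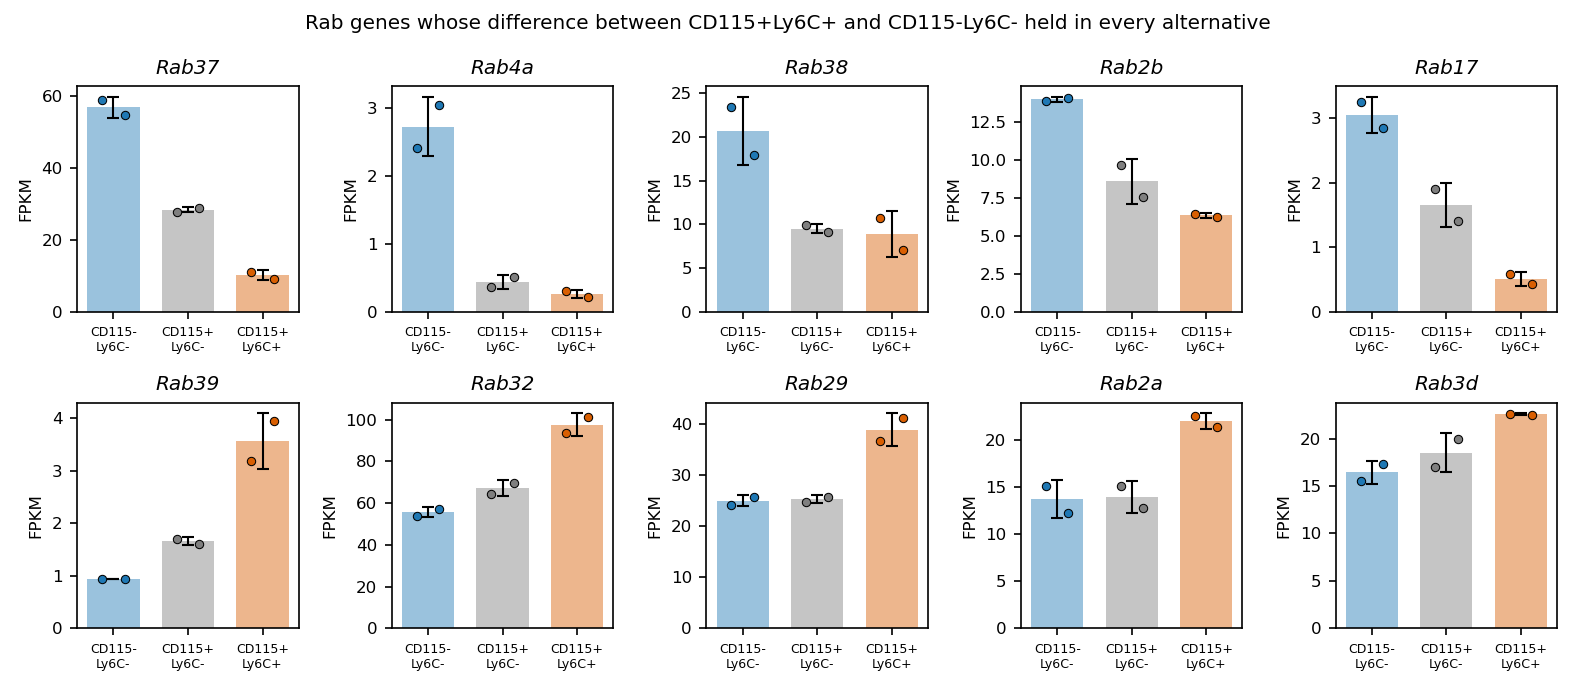
FPKM in each library (points) with the mean and SD of a subset (bars, n = 2) for the 10 Rab genes whose call between CD115+Ly6C+ and CD115-Ly6C- held under each alternative. The upper row holds the genes lower in CD115+Ly6C+ and the lower row those higher in it; Rab37 falls from 58.9 and 54.8 FPKM in CD115-Ly6C- to 11.2 and 9.15 in CD115+Ly6C+, with CD115+Ly6C- between them.

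ER and Golgi Rabs had 5 of 11 tested genes past the threshold between CD115+Ly6C+ and CD115-Ly6C-, 2 higher and 3 lower (45.5%), near the 39.3% of genes tested. The Rab2 paralogs, which act in ER to Golgi transport and in the delivery of membrane to lysosomes, moved apart. Rab2a stood at 15.1 and 12.7 FPKM in CD115+Ly6C- cells, 22.6 and 21.3 in CD115+Ly6C+ cells, and 15.1 and 12.3 in CD115-Ly6C- cells. Rab2b stood at 9.64 and 7.54, 6.43 and 6.24, and 13.9 and 14.1 FPKM in the same order. Rab2a was thus highest and Rab2b lowest in CD115+Ly6C+, each without overlap. Rab2a took 77.8% and 77.4% of the FPKM of this pair in CD115+Ly6C+ cells, 61.1% and 62.8% in CD115+Ly6C- cells, and 52.2% and 46.5% in CD115-Ly6C- cells. For CD115+Ly6C+ minus CD115-Ly6C- the log2 fold change was 0.88 ± 0.16 for Rab2a (edgeR adjusted p = 0.00322) and -0.95 ± 0.17 for Rab2b (adjusted p = 0.00290), whose promoter letters are printed above. Rab2a was also called higher for CD115+Ly6C+ minus CD115+Ly6C- (0.73 ± 0.16, edgeR adjusted p = 0.0276), a call lost without any 1 library of those subsets (highest adjusted p = 0.114). Rab2b was called higher for CD115-Ly6C- minus CD115+Ly6C- (0.58 ± 0.17, edgeR adjusted p = 0.0489), which was lost in 10 of 15 alternatives, each library left out among them (highest adjusted p = 0.183). The annotation has 195 exon bases of Rab2b shared with Tox4 on the other strand. Strandedness is not stated, so reads there cannot be told apart.

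Rab1a was the other ER and Golgi gene that was higher in CD115+Ly6C+. It stood at 84.2 and 98.7, 95.3 and 98.6, and 86.9 and 88.7 FPKM in CD115+Ly6C-, CD115+Ly6C+ and CD115-Ly6C-, so CD115+Ly6C- spanned the rest. The difference from CD115-Ly6C- was small (0.34 ± 0.11, edgeR adjusted p = 0.0419), and it was lost under library totals, with limma and without any 1 library of these 2 subsets (highest adjusted p = 0.315). Its paralog Rab1b gave 0.29 (95% interval 0.04 to 0.54, adjusted p = 0.0675). Rab30, a Golgi Rab, stood at 0.25 and 0.40, 0.17 and 0.09, and 0.75 and 0.89 FPKM, lowest in CD115+Ly6C+. Rab6b, a Golgi Rab better known from neurons, stood at 0.54 and 0.37, 0.14 and 0.38, and 1.68 and 0.75 FPKM, so CD115-Ly6C- was highest but its libraries lay 2.24-fold apart. Both were called lower in CD115+Ly6C+ than in CD115-Ly6C-: Rab30 by -2.41 ± 0.70 (edgeR adjusted p = 0.0247) and Rab6b by -2.03 ± 0.59 (adjusted p = 0.0253). Rab30 lost the call with DESeq2 and without any 1 library of the 2 subsets (highest adjusted p = 0.169), and Rab6b without CD115+Ly6C+ replicate 1 or CD115-Ly6C- replicate 1, or with the length trend removed (highest adjusted p = 0.184). Rab6a, the widely expressed paralog, stood at 18.01 to 22.5 FPKM and was not called (0.24, 95% interval -0.03 to 0.51, CD115+Ly6C+ minus CD115-Ly6C-), except with the length trend removed (0.36, adjusted p = 0.0458). It shares 708 exon bases with Mrpl48 on the other strand, which stood at 58.2 to 87.8 FPKM. The part of shared reads in the Rab6a values was not tested.

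Early endosome Rabs had 2 of 7 tested genes past the threshold, 1 in each direction, both between CD115+Ly6C+ and CD115-Ly6C- and between CD115+Ly6C+ and CD115+Ly6C- (28.6% each, against 39.3% and 9.6% of genes tested). Rab5a, which drives the fusion of early endosomes, stood at 13.3 and 11.0 FPKM in CD115+Ly6C- cells, 22.4 and 23.0 in CD115+Ly6C+ cells, and 18.04 and 12.0 in CD115-Ly6C- cells. CD115+Ly6C+ was highest in both libraries, and the CD115-Ly6C- libraries differed by 1.51-fold. The log2 fold change was 0.98 ± 0.20 for CD115+Ly6C+ minus CD115+Ly6C- (edgeR adjusted p = 0.0213) and 0.79 ± 0.20 for CD115+Ly6C+ minus CD115-Ly6C- (adjusted p = 0.0129). The first was lost without any 1 library of its 2 subsets (highest adjusted p = 0.104). The second was lost without CD115+Ly6C+ replicate 2 or CD115-Ly6C- replicate 2 (highest adjusted p = 0.0751). The antisense neighbour Pp2d1 shares 221 exon bases with Rab5a and stood at 0.25 FPKM or less. The part of shared reads in the Rab5a values was not tested. The paralogs Rab5b and Rab5c were not called with all 6 libraries: for CD115+Ly6C+ minus CD115-Ly6C- they gave -0.15 (95% interval -0.53 to 0.23) and -0.04 (-0.62 to 0.54). Without CD115+Ly6C- replicate 2, Rab5b was called for CD115-Ly6C- minus CD115+Ly6C- (0.58, adjusted p = 0.0454). Rab17, known from recycling in epithelial cells, stood at 1.90 and 1.41 FPKM in CD115+Ly6C- cells, 0.58 and 0.43 in CD115+Ly6C+ cells, and 3.25 and 2.85 in CD115-Ly6C- cells. The 3 subsets followed the order seen for Rab37, without overlap. Rab17 was lower in CD115+Ly6C+ than in CD115-Ly6C- by -2.42 ± 0.43 (edgeR adjusted p = 0.00278) and lower than in CD115+Ly6C- by -1.66 ± 0.43 (adjusted p = 0.0463). The latter was lost in 9 of 15 alternatives, each library left out among them (highest adjusted p = 0.205). Rab31, which sorts receptors in endosomes and was the highest of this step, ranged from 52.3 to 80.4 FPKM and lay just outside the threshold between CD115+Ly6C+ and CD115-Ly6C- (0.42, 95% interval 0.07 to 0.77, edgeR adjusted p = 0.0574). It was called there by DESeq2 (adjusted p = 0.0234) and by edgeR with no filter (0.0196) or the length trend removed (0.0271).

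Recycling endosome Rabs had 3 of 6 tested genes past the threshold between CD115+Ly6C+ and CD115-Ly6C- (50% of 6, against 39.3% of genes tested). Rab4a and Rab4b both return receptors from early endosomes to the surface, and here they were called in opposite directions. Rab4a stood at 0.37 and 0.51 FPKM in CD115+Ly6C- cells, 0.30 and 0.22 in CD115+Ly6C+ cells, and 2.41 and 3.03 in CD115-Ly6C- cells. It was thus a CD115-Ly6C- gene at a low level, with the CD115+ subsets close together. The log2 fold change was -3.18 ± 0.57 for CD115+Ly6C+ minus CD115-Ly6C- (edgeR adjusted p = 0.00311) and 2.50 ± 0.54 for CD115-Ly6C- minus CD115+Ly6C- (adjusted p = 0.0189). The second was lost without any 1 library of its 2 subsets (highest adjusted p = 0.121). Rab4b, far more abundant per length, stood at 80.1 and 75.1, 80.7 and 86.5, and 68.6 and 77.8 FPKM. The difference for CD115+Ly6C+ minus CD115-Ly6C- was 0.38 ± 0.12 (edgeR adjusted p = 0.0379) and was lost in 10 of 15 alternatives, among them library totals, the length trend, and each library left out in turn but CD115-Ly6C- replicate 2 (highest adjusted p = 0.732). Rab4b shares 1280 exon bases with the gene model Gm21983 on its own strand. Rab11a, which governs the slow recycling route, stood at 66.2 and 68.6, 84.4 and 82.7, and 71.0 and 68.2 FPKM, so both CD115+Ly6C+ libraries lay above the rest. Rab11a was called against CD115-Ly6C- (0.46 ± 0.10, edgeR adjusted p = 0.00655; lost under library totals, adjusted p = 0.0508) and against CD115+Ly6C- (0.38 ± 0.10, adjusted p = 0.0423). That second call was lost in 12 of 15 alternatives, among them library totals and each library left out (highest adjusted p = 0.194). Rab11b, at 27.3 to 33.9 FPKM, was not called (0.05, 95% interval -0.18 to 0.28, CD115+Ly6C+ minus CD115-Ly6C-). With the length trend removed its difference was 0.37 and was called (adjusted p = 0.0276, and 0.0476 with a replicate block). Rab14, the highest of the step, gave 0.33 (0.04 to 0.62, edgeR adjusted p = 0.0673) for CD115+Ly6C+ minus CD115-Ly6C-. It was called there by DESeq2 (adjusted p = 0.0399) and by edgeR with no filter (0.0481) or the length trend removed (0.0368, with block 0.0419).

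Of the 3 tested phagosome and autophagosome Rabs, 2 were called higher for CD115+Ly6C+ minus CD115-Ly6C-, where 19.2% of genes tested were higher. Rab39, which acts on phagosomes, stood at 1.71 and 1.60 FPKM in CD115+Ly6C- cells, 3.19 and 3.94 in CD115+Ly6C+ cells, and 0.94 and 0.94 in CD115-Ly6C- cells. The 3 subsets did not overlap, in the order opposite to Rab37 and Rab17. The log2 fold change was 2.11 ± 0.29 against CD115-Ly6C- (edgeR adjusted p = 7.59e-04) and 1.18 ± 0.27 against CD115+Ly6C- (adjusted p = 0.0336), the latter lost without any 1 library of those 2 subsets (highest adjusted p = 0.165). Rab24, known from autophagy, had the widest spread within subsets among the 30 Rab genes of at least 5 FPKM: 23.0 and 10.3 FPKM in CD115+Ly6C- cells, 70.3 and 67.0 in CD115+Ly6C+ cells, and 40.4 and 9.24 in CD115-Ly6C- cells. Both CD115+Ly6C+ libraries were highest, but the CD115-Ly6C- libraries lay 4.37-fold apart. The difference between CD115+Ly6C+ and CD115-Ly6C- was 1.67 ± 0.57 (edgeR adjusted p = 0.0440). It was 0.98 without CD115-Ly6C- replicate 2 and 3.06 without CD115-Ly6C- replicate 1. The call was lost with DESeq2, with library totals, with the length trend removed, and without either CD115+Ly6C+ library or the second replicate of CD115-Ly6C- or CD115+Ly6C- (highest adjusted p = 0.115). Against CD115+Ly6C- the difference was 2.12 (95% interval 0.80 to 3.43, edgeR adjusted p = 0.0535). It was called there by edgeR with no filter (adjusted p = 1.06e-04), with a replicate block (0.0183), and with the block and the length trend removed (0.0134). Limma on log2(FPKM + 1) also called it (adjusted p = 0.0470). Rab24 shares 1258 exon bases with Prelid1 on the other strand, and Prelid1 stood at 209 and 248, 321 and 275, and 216 and 205 FPKM, without the spread of Rab24 within CD115-Ly6C-. Reads in the shared bases cannot be assigned to 1 of the 2 genes without strand, so the level of Rab24 is uncertain. Rab20, a phagosome Rab, was erratic at 0.00 to 1.62 FPKM and was not called.

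**Figure D4:**
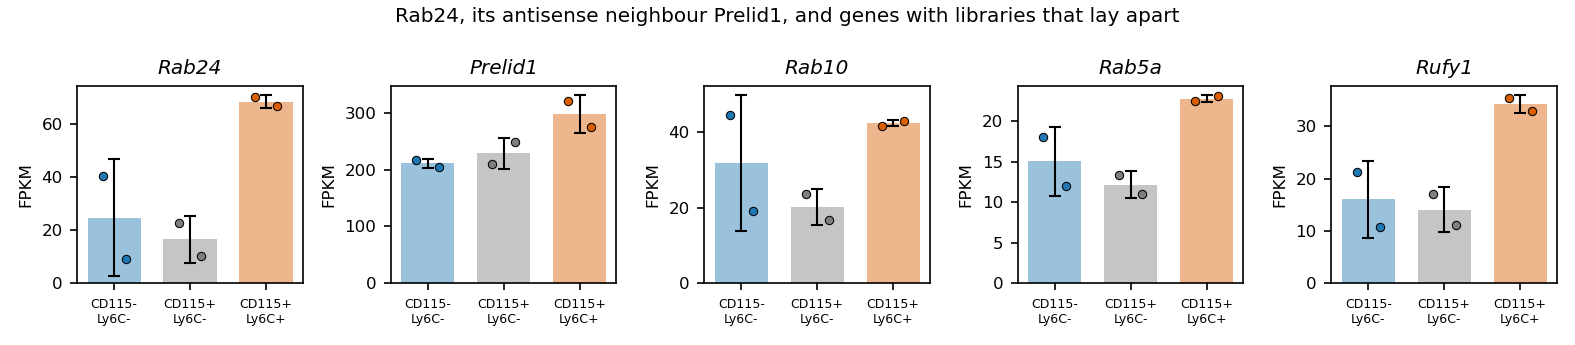
FPKM in each library (points, replicate 1 left) with the mean and SD of each subset (bars, n = 2) for Rab24, Prelid1, which shares exon bases with Rab24 on the other strand, and Rab10, Rab5a and the effector gene Rufy1. In Rab24, Rab10, Rab5a and Rufy1 the CD115-Ly6C- libraries differ by at least 1.51-fold with replicate 1 higher, and the CD115+Ly6C+ libraries lie close together.

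Rabs of transport to the plasma membrane had no gene past the threshold among 8 tested, in any comparison by the edgeR fit used here. Of genes tested, 39.3% passed for CD115+Ly6C+ minus CD115-Ly6C-, 9.6% for CD115+Ly6C+ minus CD115+Ly6C-, and 15.2% for CD115-Ly6C- minus CD115+Ly6C-. In the first of these, Rab8a was called by DESeq2 (adjusted p = 0.0395) and by edgeR with no filter (0.0312). Also there, edgeR called Rab10 with no filter (0.0282) and with length trend removed plus block (0.0288), and Rab8b with length trend removed (0.0353, with block 0.0342). In the second, edgeR called Rab10 with no filter (6.30e-04), a replicate block (0.0332), and length trend removed plus block (0.0237). In the third, no filter called Rab8b lower (0.0422). Some fits with 1 library left out also called Rab8a or Rab10. Rab8a and Rab8b, which carry cargo from the Golgi and recycling endosomes, stood at 128 to 175 and 29.6 to 43.4 FPKM. Rab8a gave 0.39 (95% interval 0.03 to 0.75, edgeR adjusted p = 0.0803) for CD115+Ly6C+ minus CD115-Ly6C-. Rab10, named here after its values were seen, stood at 23.7 and 16.8 FPKM in CD115+Ly6C- cells, 41.8 and 42.9 in CD115+Ly6C+ cells, and 44.5 and 19.1 in CD115-Ly6C- cells. Of its CD115-Ly6C- libraries, 1 thus lay beside CD115+Ly6C+ and 1 beside CD115+Ly6C-. For CD115+Ly6C+ minus CD115+Ly6C- it gave 1.14 (95% interval 0.39 to 1.88, edgeR adjusted p = 0.0627). Of the 30 Rab genes with at least 5 FPKM, Rab10, Rab5a, Rab7b and Rab24 differed at least 1.5-fold between the CD115-Ly6C- libraries, against Rab38 and Rab44 in CD115+Ly6C+ and Rab24 in CD115+Ly6C-. Rab28, which has no assigned step, stood at 43.6 to 53.7 FPKM and gave 0.24 (95% interval -0.07 to 0.55) for CD115+Ly6C+ minus CD115-Ly6C-.

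The genes that act on Rabs were taken from a list of 117, of which 108 were tested: 8 for prenylation and recycling, 29 exchange factors, 31 GTPase activating proteins and 40 effectors. Here the calls leaned to CD115-Ly6C-. Between CD115+Ly6C+ and CD115-Ly6C-, 7 were higher and 36 lower in CD115+Ly6C+ (39.8%, against 39.3% of genes tested), with a median log2 fold change of -0.32. Between CD115-Ly6C- and CD115+Ly6C-, 16 were higher and 0 lower in CD115-Ly6C- by edgeR (14.8%, against 15.2% of genes, 8.43% higher and 6.78% lower). With DESeq2 there were 19 higher and 3 lower, against 7.27% and 6.99% of genes. Between CD115+Ly6C+ and CD115+Ly6C-, 4 were higher and 9 lower (12%, against 9.6% of genes). Gene length moved with these differences. Across the genes tested, which are not independent replicates, Spearman's rho between length and log2 fold change was -0.33 for CD115+Ly6C+ minus CD115-Ly6C-, and the median length was 4241 bases for this list, 2187 for the Rab genes and 2810 for the genes tested. With the length trend removed, the list had 13 higher and 26 lower, and the Rab genes 15 higher and 6 lower, where 31.8% of genes tested were called (16.2% higher, 15.6% lower).

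Among effectors, 1 gene was higher and 15 were lower in CD115+Ly6C+ than in CD115-Ly6C- (40% of 40, against 39.3% of genes tested, 19.2% higher and 20.1% lower). Sytl1 and Sytl4 encode synaptotagmin-like proteins that tether Rab27 vesicles at the plasma membrane. Sytl1 stood at 1.73 and 3.89 FPKM in CD115+Ly6C- cells, 0.66 and 1.07 in CD115+Ly6C+ cells, and 17.7 and 18.9 in CD115-Ly6C- cells. Sytl4 stood at 1.64 and 0.83, 0.10 and 0.14, and 6.23 and 5.17 FPKM. Both followed the order of Rab37, with log2 fold changes for CD115+Ly6C+ minus CD115-Ly6C- of -4.20 ± 0.41 for Sytl1 (edgeR adjusted p = 1.49e-04) and -5.34 ± 0.47 for Sytl4 (adjusted p = 9.98e-05). Unc13d, the Munc13-4 protein that primes Rab27 granules for fusion, stood at 12.9 and 14.2, 13.2 and 10.7, and 28.2 and 24.6 FPKM. It was called higher for CD115-Ly6C- minus CD115+Ly6C- (1.09 ± 0.16, edgeR adjusted p = 0.00402). Osbpl1a, an oxysterol-binding protein that binds Rab7, stood at 5.08 and 6.12, 4.86 and 4.97, and 13.9 and 13.1 FPKM, also highest in CD115-Ly6C-. The effector that went the other way was Rufy1, which binds Rab4 and Rab14 on endosomes, at 17.1 and 11.1, 35.4 and 33.0, and 21.3 and 10.8 FPKM. Its difference was 1.29 ± 0.30 against CD115-Ly6C- (edgeR adjusted p = 0.00939) and 1.35 ± 0.30 against CD115+Ly6C- (adjusted p = 0.0283), the latter lost without any 1 library of its 2 subsets (highest adjusted p = 0.127).

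Among GTPase activating proteins, 1 was higher and 12 were lower in CD115+Ly6C+ than in CD115-Ly6C- (41.9%, against the same 39.3%). Tbc1d10c, also called carabin, stood at 124 and 111 FPKM in CD115+Ly6C- cells, 62.6 and 62.8 in CD115+Ly6C+ cells, and 182 and 183 in CD115-Ly6C- cells, again in the order of Rab37 and without overlap. Its log2 fold change was -1.35 ± 0.11 for CD115+Ly6C+ minus CD115-Ly6C- (edgeR adjusted p = 6.04e-05) and -0.84 ± 0.11 for CD115+Ly6C+ minus CD115+Ly6C- (adjusted p = 0.00325). Tbc1d4, which acts on the Rab10 and Rab8 of glucose transporter vesicles in other tissues, stood at 5.27 and 5.66, 3.07 and 2.68, and 7.41 and 6.91 FPKM, in the same order. Sgsm1 was near 0 in both CD115+ subsets (0.03 to 0.12 FPKM) and at 1.63 and 1.56 FPKM in CD115-Ly6C-. Among exchange factors, 4 were higher and 8 lower (41.4%). Rab3il1, a factor that binds Rab3 and activates Rab8, stood at 15.6 and 14.5, 24.9 and 27.3, and 10.7 and 12.6 FPKM, and Ccz1, part of the complex that activates Rab7, at 22.0 and 15.7, 31.7 and 29.7, and 20.4 and 17.7. Both were highest in CD115+Ly6C+, with log2 fold changes against CD115-Ly6C- of 1.36 ± 0.15 for Rab3il1 (edgeR adjusted p = 3.32e-04) and 0.88 ± 0.18 for Ccz1 (adjusted p = 0.00536). Dennd3, which activates Rab12, went the other way at 2.33 and 3.47, 1.48 and 1.43, and 4.82 and 4.10 FPKM (-1.42 ± 0.23, edgeR adjusted p = 0.00181). Of the 8 prenylation and recycling genes, 1 was higher and 1 lower for CD115+Ly6C+ minus CD115-Ly6C- (25%). The higher gene was Chml, which encodes an escort protein for Rab prenylation (0.82 ± 0.25, edgeR adjusted p = 0.0298). Chml lost its call under library totals, with limma and without CD115+Ly6C+ replicate 1 or CD115-Ly6C- replicate 2 (highest adjusted p = 0.167).

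**Figure D5:**
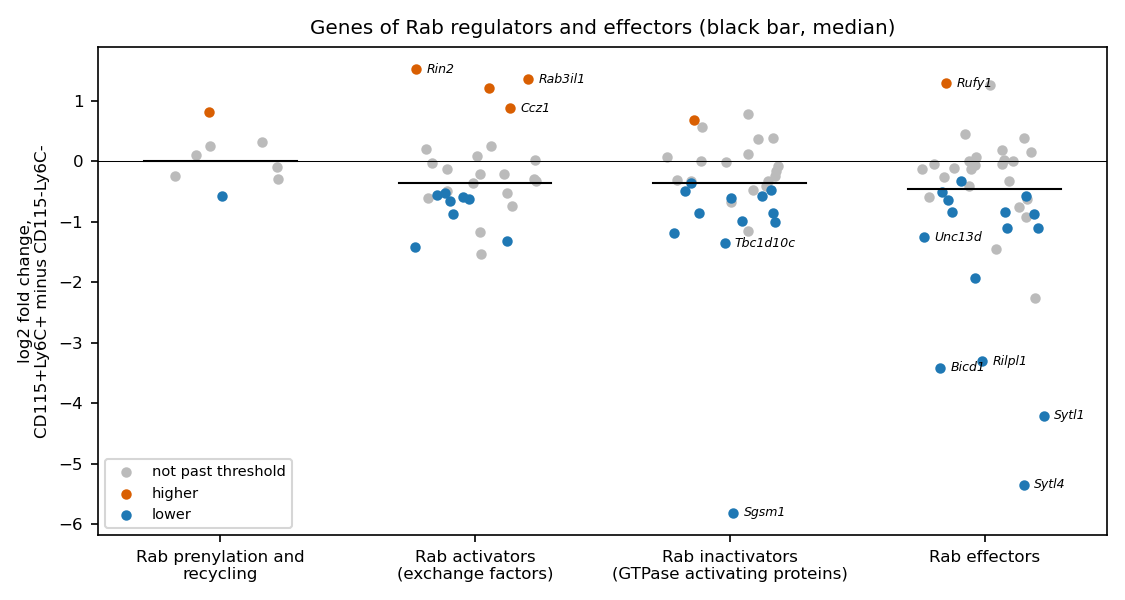
Log2 fold change for CD115+Ly6C+ minus CD115-Ly6C- of the 108 tested genes that act on Rabs, by class. Each point is 1 gene, colour marks those past the threshold (orange higher, blue lower), and the black bar is the median of the class. Of the 108, 36 were lower and 7 higher, with Sgsm1, Sytl4 and Sytl1 the lowest.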

How the data were processed

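Per the submitters' processing notes, reads were aligned with Bowtie2 and quantified with RSEM on mm10, with no version given in the sources used here. Per the file headers, the authors deposited expected counts (estimated, 12.6% of those above 0 not whole at a tolerance of 1e-06; 5.40% for Rab genes), and gene lengths for each library. The authors also deposited FPKM for each library, computed by RSEM. A gene missing from a table was taken as 0. Rounded expected counts entered a quasi-likelihood fit in edgeR 4.0.16 (R 4.3.3, glmQLFTest): TMM scaling, filterByExpr (minimum count 10, minimum total 15), 12127 genes, 6 libraries in 1 fit with 1 coefficient per subset, Benjamini-Hochberg over all genes tested, threshold 0.05. The biological coefficient of variation was 15.2%. Each log2 fold change has as SE its size divided by the root of the F statistic. FPKM is not TMM-scaled, so its ratios can differ from the fit. An exact permutation test of 2 against 2 libraries cannot go below 0.333 and was not used. The libraries of a subset differed beyond counting error (chi-square per degree of freedom 18.84 to 21.42) and were counted as 2. Coordinates are those of RefSeq GRCm38.p6.

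Named were Rab genes past the threshold, the highest 2 of each step, uncalled paralogs, and up to 3 genes per class, direction and comparison of the list that acts on Rabs. The members, lists and steps were chosen with earlier results of these data known. Alternatives used DESeq2 1.42.0, limma 3.58.1 (pseudocounts 1 and 0.1), other scalings and filters, a replicate block, a length correction, and each library left out. The fit was also run on simulated data, whose outcome is not reported here. Values of 2 listed genes are not reported here.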

Additional observations from a re-analysis of the deposited data

How the results depend on the processing

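Counts of called genes moved with single libraries, the filter, the scaling and the length correction. With 1 library left out, the lone library of its subset is assumed to vary like the rest. Rab genes called for CD115+Ly6C+ minus CD115+Ly6C- ranged from 0 to 7 higher and from 1 to 1 lower (all 6 libraries: 6 and 2), for CD115-Ly6C- minus CD115+Ly6C- from 1 to 3 and 0 to 2 (4 and 2), and for CD115+Ly6C+ minus CD115-Ly6C- from 7 to 12 and 5 to 7 (12 and 7). Genes acting on Rabs ranged from 0 to 4 higher and 3 to 9 lower, from 6 to 15 and 0 to 2, and from 5 to 8 and 21 to 36. Calls over all genes tested also became fewer whenever a library of a compared subset was left out. Such losses are therefore not particular to Rab genes. The ranges rest on fits with a lone library in a subset, and whether they lie near the background was not tested. In CD115+Ly6C+ minus CD115+Ly6C-, the log2 fold change of Rab37 ranged from -1.544 to -1.295 over the alternatives. For CD115-Ly6C- minus CD115+Ly6C-, the 2 lower Rab genes became 4 with DESeq2, 7 with no filter, and 0 with library totals or limma on either FPKM scale. The shares of genes tested that were lower were 6.99%, 6.97%, 3.95%, and 5.47% or 5.29% with limma. Library totals gave 7 higher Rab genes for CD115+Ly6C+ minus CD115-Ly6C- (12.5% of genes tested) and 26 higher genes acting on Rabs for CD115-Ly6C- minus CD115+Ly6C- (11.4% of genes tested). DESeq2 and no filter each gave 3 lower of the latter class there. Removing the length trend gave 1 lower Rab gene in each comparison with CD115+Ly6C-, and for genes acting on Rabs 1 lower (CD115-Ly6C- minus CD115+Ly6C-) and 13 higher (CD115+Ly6C+ minus CD115-Ly6C-). Of genes tested, 2.55% were then lower for CD115+Ly6C+ minus CD115+Ly6C- and 6.09% for CD115-Ly6C- minus CD115+Ly6C-, and 16.2% were higher for CD115+Ly6C+ minus CD115-Ly6C-. The cause of these changes was not tested. Rab genes summed to 3693, 4028 and 3284 TMM-scaled CPM in CD115+Ly6C-, CD115+Ly6C+ and CD115-Ly6C-, and to 3645, 3790 and 3530 with library totals.

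Replicate numbers are shared across subsets, but the labels do not say what a number marks, and the deviations of same-numbered libraries correlated at -0.004, -0.01 and 0.15, so they were not taken as pairs. With the replicate block, Rab genes called were 7 higher and 1 lower for CD115+Ly6C+ minus CD115+Ly6C-, 3 and 1 for CD115-Ly6C- minus CD115+Ly6C-, and 12 and 7 for CD115+Ly6C+ minus CD115-Ly6C-. Genes acting on Rabs were 5 and 7, 14 and 1, and 7 and 33. Of genes tested, 4.47% were higher and 3.49% lower, 6.98% and 5.41%, and 18.55% and 18.97%, in the same order. The block with the length trend removed gave 1 lower Rab gene in each comparison with CD115+Ly6C-, and for genes acting on Rabs 5 lower, 1 lower, and 12 higher with 22 lower. Genes tested in these 3 comparisons were 2.21% lower, 4.997% lower, and 15.02% higher with 14.55% lower.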
